A study of Sus scrofa with 10 samples.

Results

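Genes used as markers of oligodendrocyte precursor cells were examined in hypothalamic RNA of Iberian x Landrace backcross pigs. The 6 genes asked for were CSPG4, CSPG5, VCAN, GPR17, OLIG1 and OLIG2. By gene name, 5 of the 6 were found among 25009 gene rows. No row carries the name OLIG2, but an identifier table pairs OLIG2 with 1 unnamed row, ENSSSCG00000012039. That row is described with the others and counted apart from the 5. RNA was compared between 5 animals labelled as high and 5 labelled as low in growth and fatness, 10 animals in all, below called high pigs and low pigs. Age and treatment were not given in the sources used here. The values are FPKM (fragments scaled for transcript length and library size). The table gives each gene 1 value per group and a pair of bounds around it, printed in parentheses below. Because the animals of a group share 1 value, no replicate check was possible and no test across animals was made. No source used here gives the confidence level of these bounds, and the depth of each library is unknown.

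Oligodendrocytes, the myelin-forming cells of the brain, arise from precursor cells that divide and persist in the adult brain. OLIG1 and OLIG2 are basic helix-loop-helix transcription factors of the whole lineage, and OLIG2 also takes part in setting up the lineage. CSPG4, also called NG2, is a membrane proteoglycan carrying chondroitin sulfate and a classical surface marker of the precursors. It is found on pericytes as well. CSPG5, or neuroglycan C, is a membrane proteoglycan of neurons and glia, and VCAN, or versican, is a large secreted proteoglycan that binds hyaluronan and is also made by fibroblasts. GPR17 is a G protein-coupled receptor that appears transiently in precursors committed to maturation. The 6 genes therefore mark different stages, and only some of them are restricted to the lineage.

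All 5 named members had the lower value in the high group, and so did OLIG2. Of 15281 rows tested (those with an estimate in each group and a mean level of 1 FPKM or more), 67.7% had the lower value in the high group. Direction alone therefore says little about these genes. The low-to-high FPKM ratio ran from 1.15 for CSPG4 to 1.97 for GPR17, with a median of 1.44 over the 5 named members and 1.49 with OLIG2. Over all tested rows the median ratio was 1.08. The deposited bounds of the groups overlapped for all 6 genes. They did not overlap in 0.458% of tested rows, 0.432% with the higher value in low pigs and 0.0262% in high pigs.

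**Figure D1:**
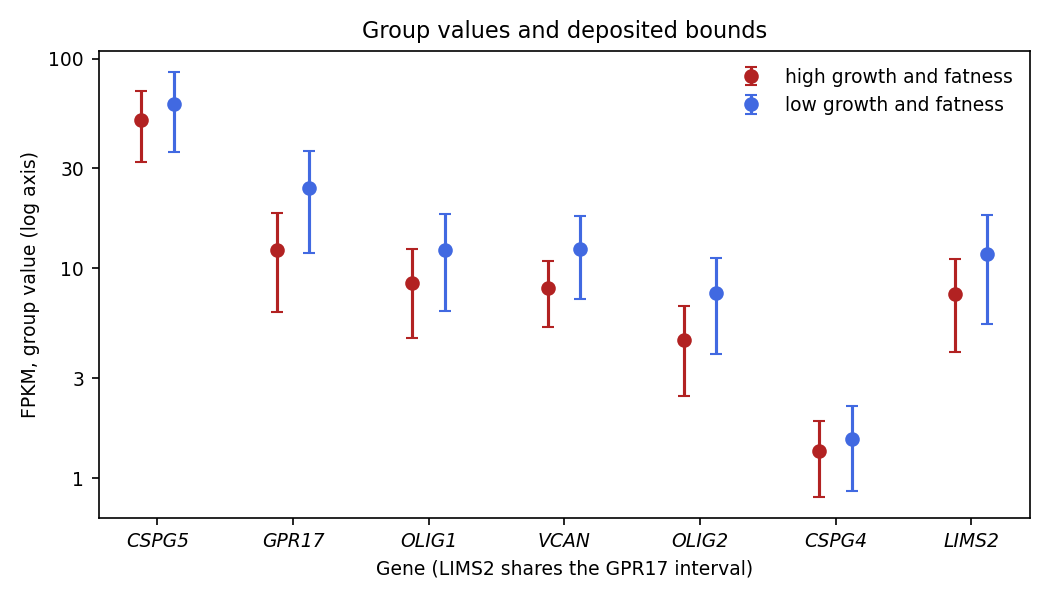
FPKM of each gene on a log axis, with points for the group values and bars for the deposited bounds, in the high (red) and low (blue) group. Every low-group point lies above its high-group point and the bars of each pair overlap; CSPG5 is the most abundant, at 50.9 and 61.0 FPKM, and CSPG4 the least, at 1.34 and 1.54 FPKM.

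GPR17 had the widest gap. It was at 12.3 FPKM (6.23 to 18.3) in high pigs and at 24.1 FPKM (11.8 to 36.4) in low pigs. The low group was 1.97 times the high group, a difference of -0.92 in log2(FPKM + 1), high minus low, the scale of all differences below. The overlap of its bounds covered 53.8% of the high interval and 26.4% of the low interval, the smallest shares of the 6 genes. The bounds of GPR17 were also wide. They lay 49.2% of the value away from it in high pigs and 51.0% in low pigs, against medians of 32.2% and 37.4% over 1576 tested rows within 1.25-fold of its mean level. On build Sscrofa10.2 GPR17 (ENSSSCG00000015863) lies on chromosome 15 from 66435455 to 66453016, and the file gives LIMS2, an adaptor protein of cell-matrix adhesions, exactly the same interval. LIMS2 was at 7.55 FPKM (4.01 to 11.1) in high pigs and 11.8 FPKM (5.46 to 18.0) in low pigs, a ratio of 1.56. No source used here says whether reads of GPR17 and LIMS2 were told apart by strand, and the value of GPR17 is uncertain for that reason.

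The transcription factors lie next to each other. OLIG2 spans 206662840 to 206664067 and OLIG1 (ENSSSCG00000012040) spans 206713879 to 206714722, both on chromosome 13, and OLIG1 starts 49812 bp past the end of OLIG2. OLIG1 was at 8.50 FPKM (4.69 to 12.3) in high pigs and 12.2 FPKM (6.29 to 18.2) in low pigs, a ratio of 1.44 and a difference of -0.48. OLIG2 was at 4.56 FPKM (2.47 to 6.64) in high pigs and 7.60 FPKM (3.93 to 11.3) in low pigs, a ratio of 1.67 and a difference of -0.63. Both factors were thus lower in value in the high group with overlapping bounds. OLIG1 was 1.87 times OLIG2 in high pigs and 1.61 times in low pigs.

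Among the proteoglycans, VCAN differed most. VCAN (ENSSSCG00000014136, chromosome 2, 93783041 to 93895486) was at 8.05 FPKM (5.26 to 10.8) in high pigs and 12.4 FPKM (7.18 to 17.7) in low pigs, a ratio of 1.54 and a difference of -0.57. CSPG5 (ENSSSCG00000011339, chromosome 13, 33636434 to 33638921) was at 50.9 FPKM (32.1 to 69.8) in high pigs and 61.0 FPKM (35.7 to 86.3) in low pigs, a ratio of 1.20 and a difference of -0.26. CSPG4 (ENSSSCG00000001873, chromosome 7, 62658014 to 62678673) was at 1.34 FPKM (0.819 to 1.87) in high pigs and 1.54 FPKM (0.872 to 2.21) in low pigs, a ratio of 1.15 and a difference of -0.12. For CSPG4 the groups shared 95.0% of the high interval and for CSPG5 90.3%, against 65.7% for VCAN. The proteoglycan that is the classical precursor marker thus had the lowest level and, as deposited, the smallest gap of the 6 genes. After quantile normalization the gap of CSPG5 (-0.076) was smaller than that of CSPG4 (-0.092).

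A low-to-high ratio of at least 1.5 was reached by 2 of the 5 named members, GPR17 and VCAN, and by OLIG2. Of all tested rows 6.71% reached it in that direction and 3.25% in the other. GPR17 was more negative than all but 1.90% of tested rows, OLIG2 all but 3.83%, VCAN all but 4.79% and OLIG1 all but 7.16%. CSPG5 and CSPG4 lay in the bulk, with 23.5% and 46.7% of tested rows more negative. The median difference was -0.48 over the 5 named members and -0.52 with OLIG2, beside -0.10 over all tested rows. Scaling by the median of ratios moved the median of all rows to 0.00056 and the share of rows lower in the high group to 49.9%, and all 6 genes kept the lower value in the high group.

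**Figure D2:**
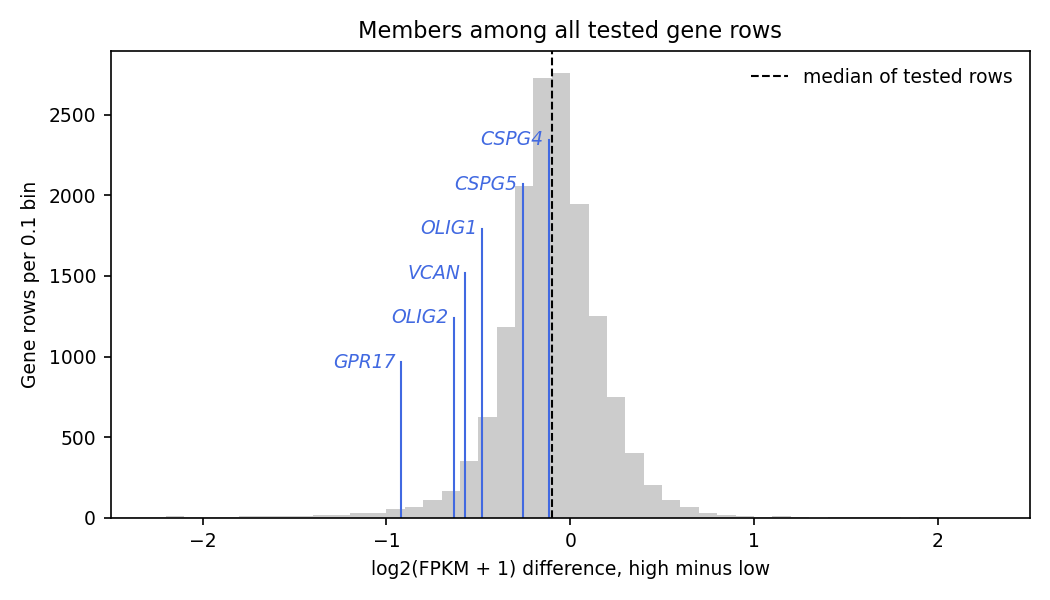
Number of tested gene rows in bins of the log2(FPKM + 1) difference, high minus low, with the 6 genes marked by blue lines whose heights carry no value. The dashed line is the median of all tested rows, -0.10; CSPG4 (-0.12) sits beside it and GPR17 (-0.92) lies in the left tail.

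Combining the bounds of both groups gives a range for each ratio. It was 0.968 to 3.99 for GPR17, 0.894 to 2.67 for VCAN and 0.857 to 3.25 for OLIG2. It was 0.742 to 2.79 for OLIG1, 0.688 to 2.09 for CSPG5 and 0.639 to 2.05 for CSPG4. Each range included a ratio of 1, and the ranges overlapped in all 15 pairs of the 6 genes. The gap of GPR17 therefore did not stand apart from that of CSPG4 beyond the deposited bounds. A z value built from the same bounds, adjusted over 15156 rows at 0.05, called 0 of the 6 genes and 0.211% of rows.

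FPKM is scaled for transcript length, so levels can be ordered between genes as far as the annotated transcripts are complete, which was not tested. The place of GPR17 is uncertain because LIMS2 shares its interval. In the high group the order was CSPG5, GPR17, OLIG1, VCAN, OLIG2 and CSPG4. In the low group OLIG1 and VCAN changed places, at 12.2 and 12.4 FPKM, a gap far inside their bounds. CSPG4 lay below OLIG2 with no overlap of bounds in either group. CSPG5 lay above GPR17 with no overlap in the high group, at 4.15 times its level, whereas in the low group it was at 2.53 times its level and the bounds met. From GPR17 down to OLIG2, genes next to each other in the order had overlapping bounds in both groups. GPR17 and OLIG2, which are not next to each other, did not overlap in low pigs, at 24.1 FPKM (11.8 to 36.4) and 7.60 FPKM (3.93 to 11.3). CSPG5 was above 92.1% of tested rows in the high group and CSPG4 above 5.64%.

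Other precursor genes had a median difference of -0.14, beside -0.52 for the 6 members, a contrast that was not tested. Of 16 listed, 12 were in the file and 11 were tested. Of these 8 had the lower value in the high group, 0 had bounds that did not overlap and 1 reached a ratio of 1.5. SOX10, a transcription factor of the whole lineage, was at 3.77 FPKM (2.15 to 5.38) in high pigs and 6.96 FPKM (3.84 to 10.1) in low pigs, a ratio of 1.85. SOX10 has 2 rows in the file, so its reads may be split. The secreted protein gene C1QL1 had a ratio of 1.47, NKX2-2, a homeodomain factor of the lineage, 1.40, and the cyclin gene CCND1 1.30. PDGFRA is a growth factor receptor used as a marker of the precursors. Its level was 9.06 FPKM (6.04 to 12.1) in high pigs and 10.3 FPKM (6.48 to 14.02) in low pigs, a ratio of 1.13. PTPRZ1, a receptor phosphatase that itself carries chondroitin sulfate, had a ratio of 1.02. PDGFRA and PTPRZ1 were named after their values were seen. Both genes were detected in each group. The ratios of CSPG4 and PDGFRA, 1.15 and 1.13, lay near the 1.08 of the median row.

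Lists of later stages had more negative medians than the other precursor genes, a contrast that was not tested. Of 9 tested genes of committed and newly formed oligodendrocytes, the stage of GPR17, 9 had the lower value in the high group, 3 reached a ratio of 1.5, and the median was -0.40. ENPP6, a phosphodiesterase of newly formed oligodendrocytes, was at 3.59 FPKM (1.94 to 5.24) against 7.12 FPKM (3.62 to 10.6) in the low group, a ratio of 1.98 that is close to that of GPR17. ZNF488, a zinc finger partner of OLIG2, had a ratio of 2.43 at low levels of 0.731 and 1.78 FPKM. BCAS1, a marker of newly myelinating cells, had a ratio of 1.55 and the kinase gene FYN 1.40. Of 11 tested mature myelin genes, 11 had the lower value in the high group, 9 reached a ratio of 1.5 and the median was -0.64. The largest ratios were those of CLDN11 (2.07), a tight junction protein of myelin, UGT8 (1.86), the enzyme that makes the myelin lipid galactosylceramide, MOBP (1.86) and ERMN (1.79). The bounds overlapped for all of these genes. In whole tissue, fewer cells of a type and less RNA per cell cannot be told apart.

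**Figure D3:**
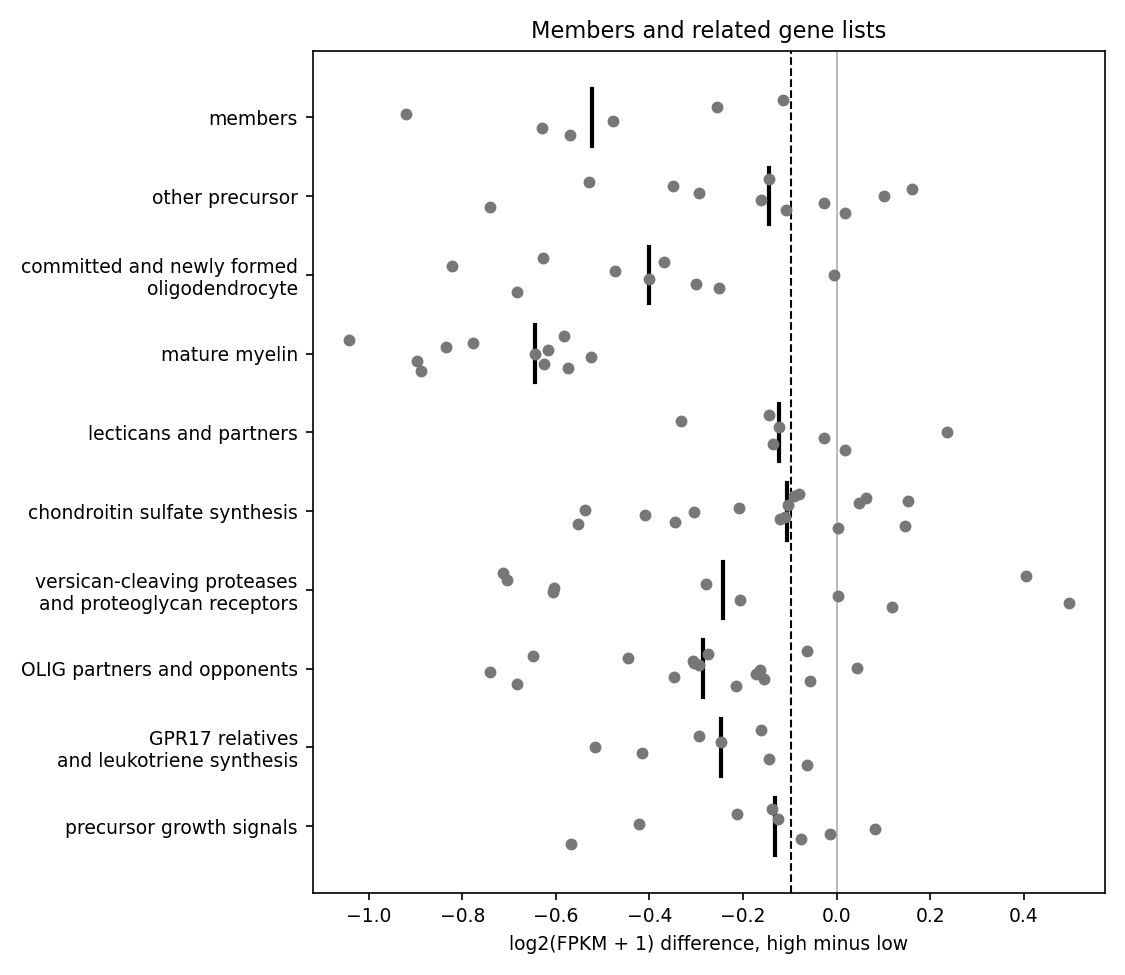
Log2(FPKM + 1) difference, high minus low, of each tested gene (grey points) in the 6 members and 9 related lists, with a bar at each list's median and a dashed line at the median of all tested rows, -0.10. The members spread from -0.92 to -0.12, mature myelin genes lie between -1.04 and -0.53, and other precursor genes reach from -0.74 to 0.16; the medians of lecticans and growth signals turned positive after some scalings.

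The molecules around the members were read from lists as well. Beside these lists, all tested rows had a median of -0.10, and 67.7% had the lower value in the high group. The medians of the lecticans and of the chondroitin sulfate enzymes lay near that of all rows. The lecticans, the family of VCAN, and their partners had 5 of 7 tested genes lower in the high group, with a median of -0.12 that turned to 0.042 after quantile normalization and to 0.0053 after upper-quartile scaling. HAPLN1, a link protein whose gene starts 46891 bp past the end of VCAN, had a ratio of 1.33, the brain lectican BCAN 1.11, the matrix glycoprotein TNC 1.11 and the hyaluronan synthase HAS2 0.774. The enzymes that build chondroitin sulfate had a median of -0.11, with 11 of 16 lower in the high group. Their largest differences were those of the sulfotransferases CHST15 and UST, with ratios of 1.59 and 1.51. The epimerase DSE, at 1.51, and the chain polymerase CHSY1, at 1.40, came next. Proteases that cut versican and receptors for the proteoglycans had a median of -0.24, with 6 of 10 lower in the high group. ADAMTS4, one of these proteases, was at 7.13 FPKM (4.78 to 9.48) against 12.2 FPKM (7.77 to 16.7) in the low group, a ratio of 1.72. ADAMTS1 had a ratio of 1.95, the hyaluronan receptor CD44 1.63 and ERBB3, a receptor of the neuregulin family that CSPG5 has been reported to bind, 1.57. ADAMTS1 and ERBB3 have 2 rows each. The difference of VCAN, -0.57, lay outside the range of the 7 tested lectican genes and partners, -0.33 to 0.24, and the gap was not tested. BCAN was the only lectican among those 7, and NCAN was not found. The lectican ACAN, below the filter at 0.405 and 0.612 FPKM, had a ratio of 1.51, near the 1.54 of VCAN. Of the partners below the filter, HAPLN3 had a ratio of 2.20 and HAS1 0.738.

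Partners and opponents of the OLIG factors had a median of -0.28, with 15 of 16 tested genes lower in the high group and 3 at a ratio of 1.5. Besides SOX10 and ZNF488, the largest differences were those of ID1 (ratio 1.69) and ID2 (1.38), which bind helix-loop-helix proteins and keep them off DNA. TCF4, a helix-loop-helix partner named after its values were seen, had a ratio of 1.04. Relatives of GPR17 among the purine and leukotriene receptors, with enzymes of leukotriene synthesis, had a median of -0.25, and 7 of 7 tested genes were lower in the high group. P2RY12 (1.45) and P2RY13 (1.46) are receptors of microglia, LTC4S (1.30) makes leukotriene C4 and ALOX5AP (1.23) assists leukotriene synthesis. The leukotriene receptors CYSLTR1 and CYSLTR2 were below the filter. Growth signals of precursors had a median of -0.13, which turned to 0.0028 after upper-quartile scaling, with 7 of 8 lower in the high group. The growth factor PDGFC had a ratio of 1.54, and FGFR1 and FGF2 1.17 and 1.11. IGF1 had a ratio of 1.75 at low levels, 0.829 FPKM (0.103 to 1.55) in high pigs and 1.45 FPKM (0.172 to 2.73) in low pigs. None of the 9 related lists held a gene whose bounds did not overlap.

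Several members are also made by other cells, whose markers differed between the groups. Markers of fibroblasts and meninges, which also make VCAN, summed to 48.8 FPKM in high pigs and 162 FPKM in low pigs over 8 genes. All 7 tested were lower in the high group and 5 had bounds that did not overlap, against 0.458% of all tested rows. These were COL3A1, COL1A1, ISLR, COL1A2 and DCN, with ratios of 5.13, 4.31, 4.93, 2.72 and 2.63. COL1A1 and COL1A2 have 2 rows each. VCAN had a ratio of 1.54, and the part of fibroblast RNA in it was not tested. Markers of pericytes and smooth muscle, 11 genes, summed to 87.9 and 156 FPKM, with 10 of 11 lower in the high group, a median difference of -0.40 and a median ratio of 1.41. The contractile genes ACTA2 (3.15) and TAGLN (2.33) had bounds that did not overlap. The other markers, named after their values were seen, had ratios of 0.926 (NOTCH3), 1.03 (ABCC9), 1.05 (PDGFRB), 1.22 (KCNJ8) and 1.33 (RGS5). ANPEP had a ratio of 1.41, MCAM 1.67, DES 2.49 and MYH11 2.52, beside 1.15 for CSPG4. The part of these cells in CSPG4 was not tested.

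CSPG5 is shared with neurons and astrocytes. Neuron markers summed to 1431 FPKM in high pigs and 1486 FPKM in low pigs over 6 genes, and their median of -0.09 turned positive under each of 3 scalings. The largest differences were those of MAP2, with a low-to-high ratio of 0.821, and SNAP25 (1.17). Astrocyte markers had a median of -0.21 and summed to 2875 and 3586 FPKM over 8 genes, with GLUL at a ratio of 1.45 and AQP4 at 1.26. GFAP was listed at 0 with no estimate. The ratio of CSPG5, 1.20, was above the median ratios of 1.07 for neurons and 1.16 for astrocytes, and the parts of these cells in it were not tested.

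Markers of other cells and of neighbouring tissue also had different values in the groups. Among those tested here, only HBB and HBA, of blood, had bounds that did not overlap. Over all tested rows 67.7% were lower in the high group, with a median of -0.10. Microglia (6 of 6 tested lower in the high group, median -0.53, summed level 178 against 257 FPKM), anterior pituitary (5 of 5, -1.03, 386 against 749 FPKM), blood (3 of 3, -1.21, 159 against 390 FPKM) and choroid plexus (3 of 4, -0.52, 279 against 420 FPKM) were lower in the high group. Endothelial markers were lower in 4 of 4 (median -0.18, 33.5 against 38.9 FPKM). Genes that mark the hypothalamus itself went the other way, with 9 of 10 tested genes higher in the high group, a median of 0.43 and summed levels of 998 against 693 FPKM. HCRT (ratio 0.429) and PMCH (0.549), peptides of the lateral hypothalamus, had the largest differences. AGRP (1.14) was the tested gene of this list that was lower in the high group. POMC (1.31), counted here with the anterior pituitary, is also made by neurons of the hypothalamus. The median of the members, -0.52, lay close to those of microglia and choroid plexus. The part of a different tissue makeup in the values of the members was not tested.

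**Figure D4:**
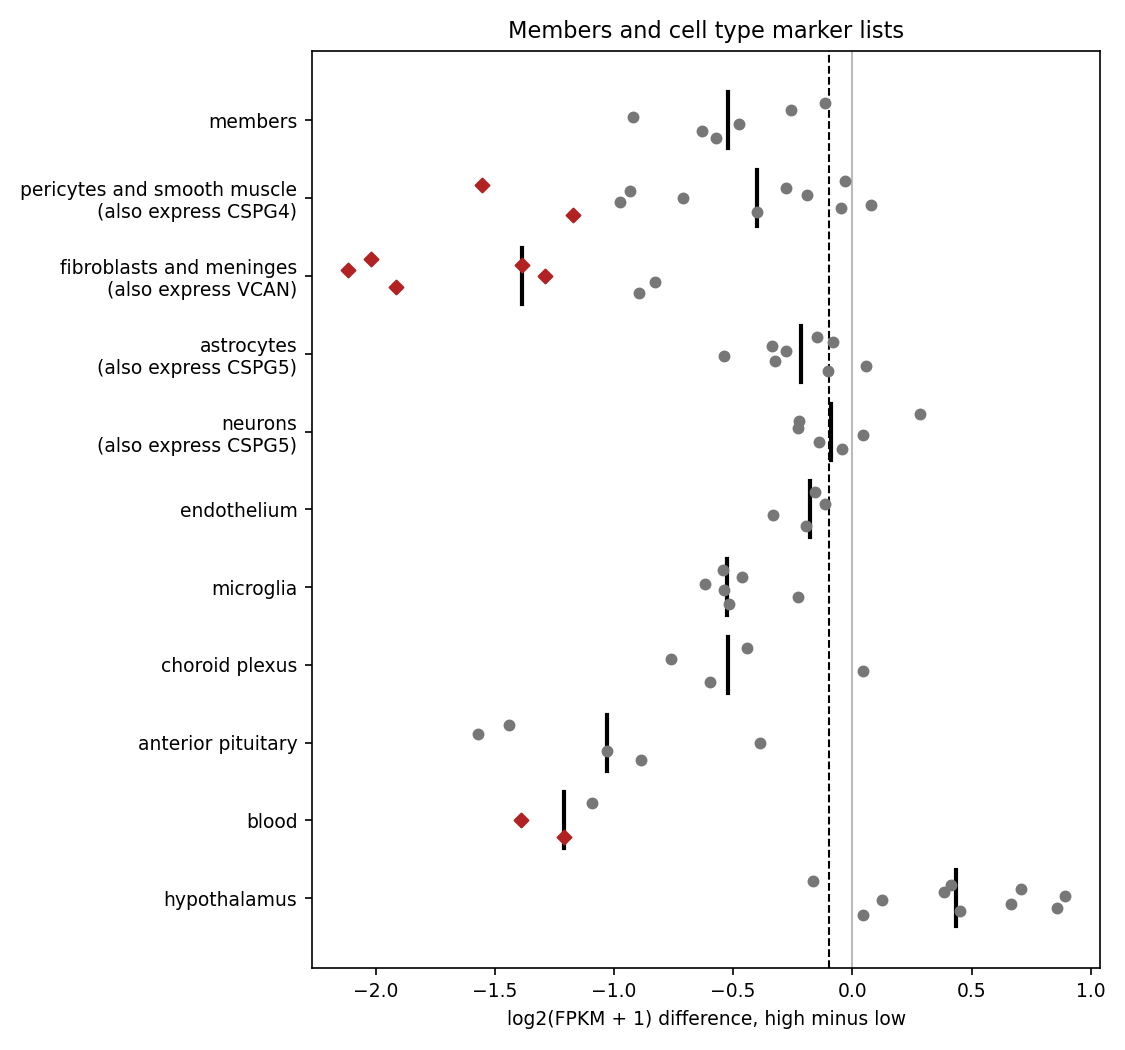
Log2(FPKM + 1) difference, high minus low, of each tested gene in the 6 members and 10 cell type marker lists, with bars at list medians, grey points for overlapping bounds, red diamonds for bounds that do not overlap and a dashed line at the median of all tested rows. Fibroblast markers (median -1.39) hold 5 diamonds, the members (-0.52) hold 0, and hypothalamic genes (0.43) lie on the other side of 0; the neuron median (-0.09) turned positive after each scaling.

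The differences of the 6 genes were recomputed with other pseudocounts and scalings. Over 5 settings GPR17 ranged from -0.97 to -0.79, OLIG2 from -0.73 to -0.51, VCAN from -0.62 to -0.44 and OLIG1 from -0.52 to -0.35. CSPG5 ranged from -0.26 to -0.076 and CSPG4 from -0.18 to -0.032. None of the 30 values changed sign, and GPR17 stayed the most negative under each setting. A pseudocount cannot change a sign, so those values add nothing on direction. Median-of-ratios and upper-quartile scaling use 1 common factor per group, so the order of the genes under them follows largely from the deposited ratios. Their signs likewise follow from the deposited ratios and those factors, and add little on direction.

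**Figure D5:**
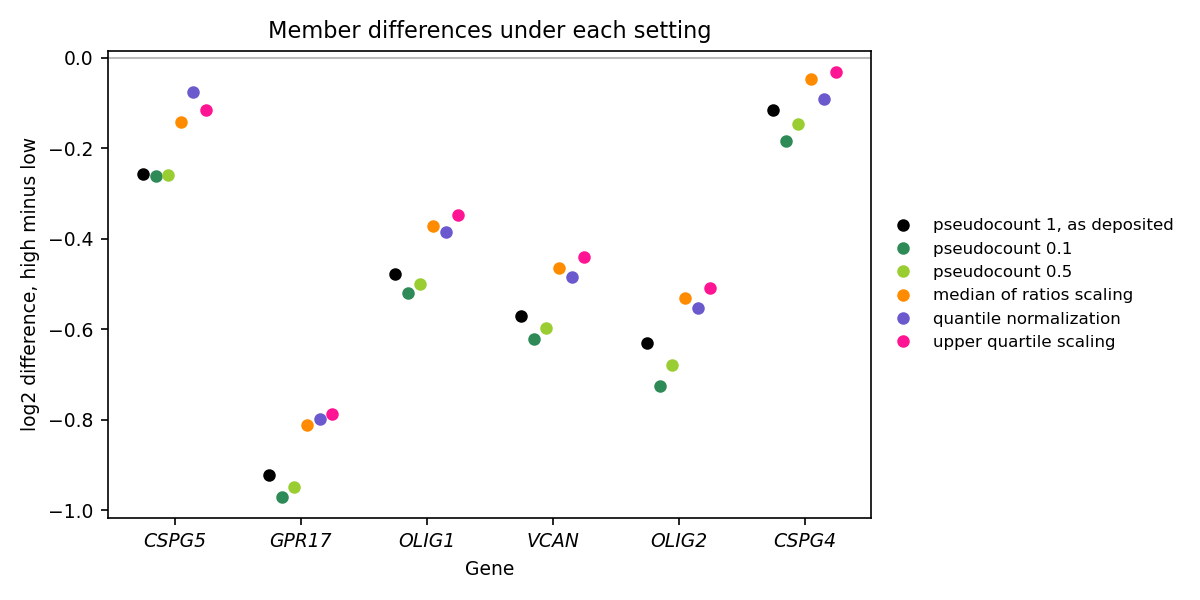
Log2 difference, high minus low, of each of the 6 genes as deposited with a pseudocount of 1 (black) and under 5 other settings (colours). All points lie below 0; GPR17 stays between -0.97 and -0.79, and CSPG5 and CSPG4 come closest to 0 after scaling.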

How the data were processed

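Total RNA of 10 hypothalami was sequenced as paired-end libraries on an Illumina HiSeq instrument, per the labels' protocols. The submitters' processing notes name TopHat2 2.0.5, Bowtie2, Cufflinks 2.0.2 and build Sscrofa10.2 without roles. The authors deposited FPKM as 1 value per gene and group with bounds, per the file headers. No source used here says how 5 animals became 1 value. Depth is unknown, so no counting interval was computed.

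Differences are log2(FPKM + 1), high minus low, which understates changes of low genes. Rows needed an estimate in both groups (58 lacked one) and a mean of at least 1 FPKM. A row was called where the bounds did not overlap. For z, the distance from value to bound was taken as 2 SD. Ratio ranges combine the relative distances of both groups as a root sum of squares on the natural log scale. Neither is a test across animals. The z calculation was run on simulated data made with the same 2 SD assumption, so that run could not check the assumption. Tools were Python 3.11.15, pandas 2.3.3 and matplotlib 3.10.9.

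Lists were matched by gene name, else by identifier, taking the placed row of highest mean. Some genes are in several lists. The rule names all members, the 4 largest absolute differences per related list, and for cell types the 2 largest and up to 6 with non-overlapping bounds. Not every gene it allows is printed. Members and lists were chosen with earlier results of these data known. No sequences were used here.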

Additional observations from a re-analysis of the deposited data

How the results depend on the processing

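The 6 members had overlapping bounds as deposited, under z, and after median-of-ratios or quantile scaling. Counting a ratio of at least 1.5 gave 3 of 6 in place of 0, a looser criterion by construction. Non-overlapping rows numbered 70, and 72 with no filter, 47 when rows under a mean of 5 FPKM were dropped and 56 with 1 row per symbol. Of 20 list medians, 17 kept their sign under every setting tried. After quantile normalization the medians were -0.49 for mature myelin, 0.042 for lecticans, -0.12 for GPR17 relatives, -0.015 for growth signals, -0.011 for astrocytes, 0.12 for neurons, -0.095 for endothelium, -0.37 for microglia, -1.04 for blood and 0.70 for hypothalamus. After median-of-ratios scaling they were -0.018 for lecticans, -0.022 for growth signals, -0.098 for astrocytes, 0.024 for neurons, -0.075 for endothelium, -0.41 for microglia and -1.10 for blood. After upper-quartile scaling, added for lists after seeing the data, they were -0.51 for mature myelin, 0.0053 for lecticans, -0.17 for OLIG partners, 0.0028 for growth signals, -0.072 for astrocytes, 0.050 for neurons, -0.053 for endothelium, -0.39 for microglia and -1.07 for blood. With a pseudocount of 0.1 they were -1.38 for anterior pituitary and -1.40 for blood. Median-of-ratios and upper-quartile scaling use 1 common factor per group, and their shifts follow by construction. For the other settings the cause was not tested. No paired analysis was possible because the table gives 1 value per group, and fits without single animals were not run for the same reason. What depth limits could not be measured.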

Other observations

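Within 200 kb of the 6 genes lie 15 other tested rows, leaving out LIMS2. Of these, 13 had the lower value in the high group, with a median difference of -0.16, and 1 reached a low-to-high ratio of 1.5. That row was XRCC4, a DNA repair gene near VCAN, at 1.43 FPKM (0.669 to 2.19) in high pigs and 2.26 FPKM (1.04 to 3.48) in low pigs. IMP3, near CSPG4, was at 16.5 against 21.2 FPKM, a larger ratio (1.29) than that of CSPG4 itself (1.15), and POLR2D, near GPR17, was at 55.1 against 72.2 FPKM (1.31). These neighbours were named after their values were seen.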
